A study of Mus musculus with 110 samples.

Results

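V(D)J joins made by pro-B cells of mouse bone marrow were compared with joins made by an untreated parental v-Abl transformed pro-B line. The comparison used every full junction library titled for these cells: 6 bone marrow libraries and 8 libraries of the parental line, an a and a b library for each of 4 replicates. These are 14 of the 98 full junction libraries, in a series of 110 samples, and hold 843057 junctions. The series was built to study chromatin loop extrusion and RAG scanning at the Igh locus. In LAM-HTGTS V(D)J-Seq, genomic DNA is copied by linear amplification from a fixed bait, here at the Ighj4 segment, into whatever sequence has been joined to it. Each junction read therefore names 1 partner of Ighj4.

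The bone marrow cells came from 129SV mice and are labelled wild-type. Labels of replicates 2 to 6 say that they were sorted as B220+CD43+IgM-, and the sort of replicate 1 is not stated. A general protocol entry for replicates 4 to 6 lists culture medium and drug, whereas their own growth entry is None and their own treatment entry is the sort. The parental line is RAG2 deficient and carries an Emu-Bcl2 transgene, with WT added to the genotype of replicates 3 and 4. It was grown in RPMI1640 with 15% FBS, given RAG2 by nucleofection, and kept in 3 uM STI-571, an Abl kinase inhibitor, for 4 days. Apart from organism, cell type by label and bait, the groups share no genotype or treatment, so strain, transgene, source of RAG2, drug and culture cannot be told apart in this comparison. Sorted cells were taken as they stood in the marrow, after any selection on the Igh gene product, whereas the line was sampled days after RAG2 was supplied. The libraries are of DNA and hold no marker transcripts, so the labelled cell type could not be checked. Joins at other receptor loci, given at the end, link Ighj4 to them. They do not show whether those loci were themselves rearranged.

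A heavy chain variable exon is assembled in steps: a D segment is joined to a JH segment, and a VH segment is then joined to the DJ product. The RAG endonuclease cuts at recombination signals, each made of a heptamer, a spacer and a nonamer, and pairs a signal with a short spacer with one with a long spacer. Opened coding ends can lose bases and gain untemplated bases from terminal deoxynucleotidyl transferase, or can be joined at short stretches of shared bases. Joins in 2 of the 3 possible reading frames cannot encode a heavy chain, and pro-B cells that make a product able to pair and signal move on, which changes which joins are found in later cells.

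The segments on which the results turn are shown with their recombination signals, read from mm9 on the minus strand of chromosome 12, which is the coding strand of the locus. Capitals mark the heptamer and the nonamer, and the lower case run between them is the spacer of 12 bases beside a D segment and of 23 bases beside a VH segment or Ighj4. Ighd1-1 (DFL16.1), at chr12:114720353-114720403, is the D segment whose share of D joins differed most in percentage points, and all of its coding bases are shown.
Ighd1-1: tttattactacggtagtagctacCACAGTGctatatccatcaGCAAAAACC
Ighd2-3, at chr12:114713583-114713627, is a D segment whose share of D joins overlapped between the groups.
Ighd2-3: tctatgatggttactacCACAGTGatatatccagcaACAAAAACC
Ighd4-1 (DQ52), at chr12:114668711-114668749, is the D segment nearest to the JH cluster.
Ighd4-1: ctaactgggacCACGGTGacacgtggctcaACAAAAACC
Ighv5-2 (VH81X), at chr12:114816676-114816735, was the most used VH segment in both groups, and the last 21 coding bases of each VH segment are shown.
Ighv5-2: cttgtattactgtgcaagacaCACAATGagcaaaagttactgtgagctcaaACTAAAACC
Ighv2-9, at chr12:115117268-115117327, and Ighv1-5, at chr12:115751502-115751561, are VH segments that bone marrow used and the line rarely did, the first in the D-proximal part of the VH region and the second beyond it.
Ighv2-9: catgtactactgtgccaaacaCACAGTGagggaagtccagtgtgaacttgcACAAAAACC
Ighv1-5: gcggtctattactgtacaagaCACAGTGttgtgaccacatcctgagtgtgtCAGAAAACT
The bait segment Ighj4, at chr12:114666725-114666817, has its signal on the other side.
Ighj4: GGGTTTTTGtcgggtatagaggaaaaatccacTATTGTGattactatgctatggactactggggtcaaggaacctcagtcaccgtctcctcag
Ighd1-1, Ighd2-3, Ighv2-9 and Ighv1-5 have the same heptamer, and those of Ighd4-1 and Ighv5-2 each differ from it by 1 base.

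The parental a and b libraries carry different bases in the bait itself, close to Ighj4. In mm9 the stretch lies at chr12:114666665-114666693 on the plus strand, ending 32 positions before the lowest coordinate of Ighj4, and the bone marrow reads have the mm9 bases. The stretches of the line's reads have no exact match on the plus strand of chromosome 12. Capitals mark the bases that differ.
bone marrow: aatgctcagaaaactccATAAcaaaggtt
parental a: aatgctcagaaaactccTcaaaggtt
parental b: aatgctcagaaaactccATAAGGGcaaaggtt
What the letters a and b stand for is not given in the sources used here. The share of a parental replicate is the mean of its a and b library throughout, so n = 4, and nothing in the labels says whether replicates came from separate cultures or, for bone marrow, separate mice. P-values therefore measure the spread between these samples.

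Bone marrow replicates held 30090 to 89909 junctions and parental replicates 14866 to 231023. A mark for duplicate reads was set on 82.6% to 87.4% of junctions in bone marrow replicates 1 to 3 and on 0 junctions elsewhere. Results were also computed without the marked reads and with identical junctions counted once. Here identical means the same library, partner position, orientation, last bait base and number of bases between, whatever those bases are. Separate joins that agree in these were merged too, which weighs most on deep libraries and on joins with few possible forms. Read names gave 4 sequencing runs, each holding replicates of 1 group only, so that run and group cannot be told apart. Groups were compared with an exact permutation test, two-sided, over all 210 arrangements of 6 against 4 replicates. The smallest p this allows is 0.00476, which becomes 0.00699 after Benjamini-Hochberg adjustment over the 91 values tested. Of these, 80 (87.9%) passed at an adjusted p under 0.05 and 68 (74.7%) had groups that did not overlap. Every share or structure value called different below gave these 2 smallest values unless another p is printed.

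Junctions with a VH segment as partner were a far larger share in bone marrow than in the line, and those with a D segment as partner a smaller one. D segments that lie inside VH joins are not in the D share. A junction was given to a segment when it lay within 100 bp of the segment's end in the joining orientation. VH segments held 22.1%, 31.9% and 36.4% of all junctions in the lowest, median and highest bone marrow replicate, with a mean of 30.6% ± 5.95 (SD, n = 6). In parental replicates 1 to 4 they held 3.43%, 4.24%, 5.41% and 5.10%, with a mean of 4.55% ± 0.895 (SD, n = 4). Every bone marrow replicate lay above every parental one, and the difference of 26.0 percentage points was larger than the spread in either group. D segments held 60.3%, 64.5% and 74.4% of junctions in the lowest, median and highest bone marrow replicate. The parental values were 93.6%, 92.9%, 91.6% and 91.8%. The means were 66.0% ± 5.83 (SD, n = 6) and 92.5% ± 0.965 (SD, n = 4), again without overlap. The bone marrow VH share depended on the treatment of duplicates. Without marked reads it was 61.6%, 58.3% and 56.8% in replicates 1 to 3, against 25.3%, 22.1% and 36.4% in replicates 4 to 6, and the group mean of 43.4% ± 17.7 (SD, n = 6) still differed from the line (exact permutation p = 0.00952, Benjamini-Hochberg 0.0149). With identical junctions counted once, the parental VH share was 8.11%, 9.21%, 21% and 20.1%, below all bone marrow values, which ran from 35.2% to 53.5%.

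**Figure D1:**
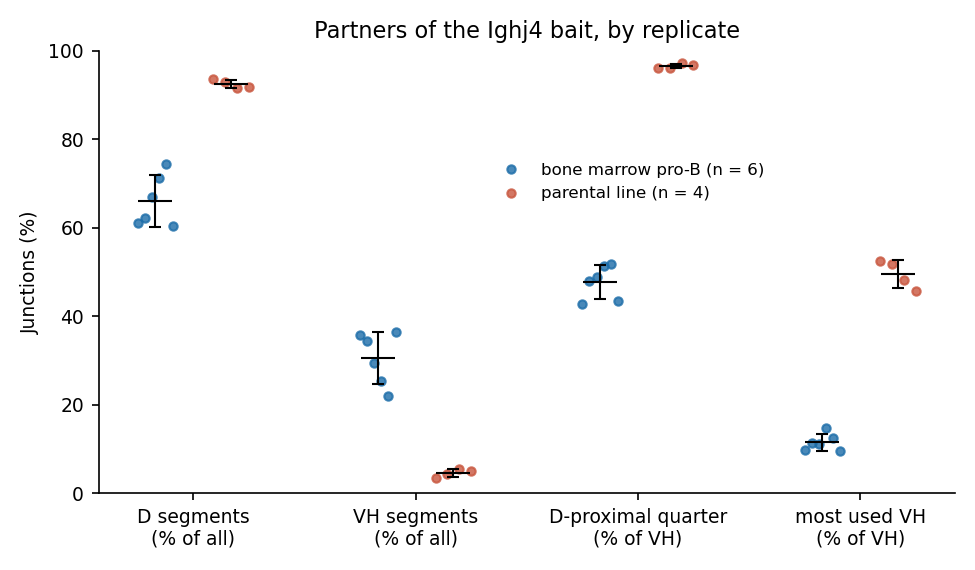
Share of junctions (%, linear axis) in 4 classes, with 1 point per replicate (blue: 6 bone marrow, red: 4 parental) and black bars for mean and SD. The groups do not overlap in any class: bone marrow replicates hold 22.1% to 36.4% VH junctions and parental ones 3.43% to 5.41%.

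Within D joins, Ighd1-1 differed most in percentage points. It was the 1 segment called lower in bone marrow with every read, all replicates and tallies scaled to all D junctions. It lies farthest from the JH cluster among the D segments in common use, and held 20.8%, 22.7% and 24.8% of D junctions in the lowest, median and highest bone marrow replicate. In the line it held 65.7%, 65.4%, 65.9% and 65.6%. The parental values lay within 1 percentage point of each other and all stood far above bone marrow. The means were 22.9% ± 1.44 (SD, n = 6) and 65.6% ± 0.214 (SD, n = 4), a difference of -42.7 points. Without duplicate-marked reads the share in bone marrow replicates 1 to 3 was 13.0%, 13.5% and 13.1%, and replicates 4 to 6 were between 22.1% and 24.8%. With identical junctions counted once the means were 17.1% and 40.6%.

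Most other D segments took a larger part of D joins in bone marrow. With limma (voom weights) on tallies scaled to all D junctions, 17 of 20 D segments tested differed at an adjusted p under 0.05 (85% of those tested), 16 (80%) higher and 1 (5%) lower in bone marrow. In 15 of the 20 (75%) every bone marrow replicate lay above every parental one. The D2 family, which fills the middle of the D array, held 59.5%, 61.4% and 63.8% of D junctions in the lowest, median and highest bone marrow replicate, against 26.6%, 25.4%, 27.4% and 27.7% in the line. The group means were 61.2% ± 1.6 (SD, n = 6) and 26.8% ± 1.0 (SD, n = 4). Among named members, Ighd2-8-like 114705398 (named by hybrid position and closest mm9 symbol) held 9.15% to 10.0% of D junctions in bone marrow. It held 2.75%, 2.57%, 1.74% and 1.99% in the line. Ighd2-4-like 114710077 held 5.39% to 6.92% against 0.785% to 1.13%, and limma gave a log2 change of 2.84 ± 0.10 (SE; adjusted p = 5.75e-14). Ighd1-1-like 114719352, a D segment whose flank matched Ighd1-1 with 76.0% identity only, went the other way from Ighd1-1. It held 5.51%, 6.70% and 7.44% in the lowest, median and highest bone marrow replicate, and 0.722%, 0.827%, 0.668% and 0.700% in the line.

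3 D segments showed no difference past the threshold by either test: Ighd4-1, Ighd2-3 and Ighd2-8-like 114690286. Ighd4-1, nearest to JH, held 4.74%, 5.75% and 6.52% in the lowest, median and highest bone marrow replicate, and 6.27%, 7.42%, 5.41% and 5.32% in the line. The groups overlapped (exact permutation p = 0.467, Benjamini-Hochberg 0.488). Ighd2-3 held 9.19% to 10.5% in bone marrow. In the line it held 6.68% and 6.60% in replicates 1 and 2, and 9.74% and 9.87% in replicates 3 and 4, so that only the first pair lay below bone marrow (exact permutation p = 0.0667, Benjamini-Hochberg 0.0731). Ighd2-8-like 114690286 had means of 6.56% ± 0.345 (SD, n = 6) and 6.58% ± 0.371 (SD, n = 4), with an exact permutation p of 0.9. The small D3 and D6 segments were higher in bone marrow: Ighd3-2-like 114687612 held 1.82% to 3.04% against 0.468% to 0.754%, and Ighd6-1, annotated as a pseudogene, held 0.467% to 0.669% against 0.0303% to 0.110%. These shares are of 1 total, so a lower Ighd1-1 share leaves more for the rest. With median-of-ratios scaling, 6 D segments were higher and 6 lower in bone marrow. With identical junctions counted once, 10 of 15 tested were higher and 4 lower. Bone marrow run 1 against parental run 2 gave 13 higher and 2 lower.

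**Figure D2:**
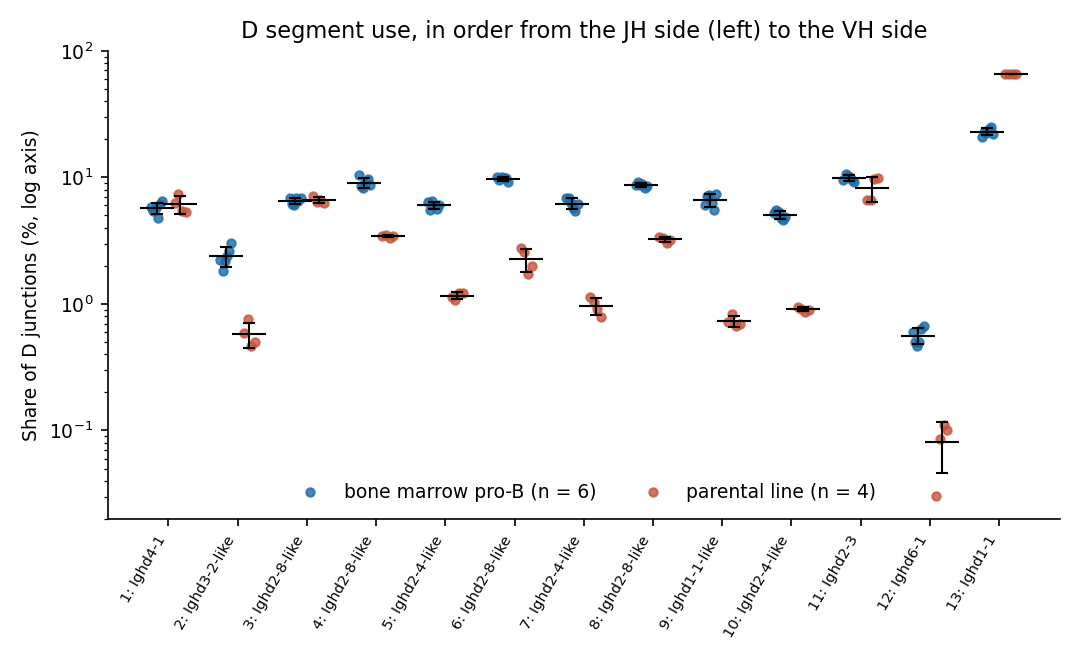
Share of D junctions (%, log axis) for the D segments with a bone marrow mean over 0.4%, numbered from the JH side at the left, with 1 point per replicate and black bars for mean and SD. Ighd1-1 at the far right is the segment that stands higher in the parental line, and Ighd4-1, the first Ighd2-8-like segment and Ighd2-3 overlap between the groups.

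VH joins in bone marrow were spread over the whole VH region, and those of the line lay almost all at its D-proximal end. The region runs 2807 kb from the first VH segment and was split into 4 equal parts. The D-proximal part held 42.8%, 48.4% and 51.9% of VH junctions in the lowest, median and highest bone marrow replicate. It held 96.1%, 96.2%, 97.2% and 96.7% in the line, and the groups did not overlap. The next part held 29.9% ± 2.64 (SD, n = 6) in bone marrow and 1.28% ± 0.615 (SD, n = 4) in the line. The third held 13.1% ± 0.794 against 1.03% ± 0.211, and the most distal 9.27% ± 0.631 against 1.12% ± 0.232 (SD, n = 6 and 4). The median VH junction lay 639, 750 and 884 kb from the first VH segment in the lowest, median and highest bone marrow replicate. In the line the values, each the mean of the medians of an a and a b library, were 5.58, 5.58, 5.59 and 10.5 kb. For replicates 1 to 3 this is the position of Ighv5-2. The 10.5 kb of replicate 4 is no segment's position: it falls between Ighv5-2, at 5.57 kb, and the next VH segment, at 15.3 kb.

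Both groups nonetheless shared the order of their 4 most used VH segments, Ighv5-2, Ighv2-2-like 114846142, Ighv5-4 and Ighv2-3, which lie within 38.3 kb of the first VH segment. Ighv5-2 held 9.50%, 11.3% and 14.7% of VH junctions in the lowest, median and highest bone marrow replicate. It held 52.5%, 51.7%, 48.2% and 45.8% in the line, with no overlap. Per VH junction its log2 change was -2.11 ± 0.11 (SE; limma adjusted p = 9.09e-15). As a share of all junctions the order was the opposite: 2.73%, 3.48% and 3.92% in the lowest, median and highest bone marrow replicate, and 1.80%, 2.19%, 2.61% and 2.33% in the line (log2 change 0.53 ± 0.11 (SE), limma adjusted p = 2.60e-05). This sign turned with median-of-ratios scaling, which gave -1.56, and with identical junctions counted once, which gave -0.89. Ighv2-2-like 114846142 held 5.36% to 8.53% of VH junctions in bone marrow and 17.4%, 18.3%, 25.0% and 27.3% in the line. Ighv5-4-like 114830805, the VH segment nearest to D, ranked 5 in the line at 3.24% ± 0.384 (SD, n = 4) of VH junctions and 61 in bone marrow at 0.510% ± 0.0963 (SD, n = 6).

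Of 123 VH segments tested per VH junction, limma called 114 (92.7%), 108 (87.8%) higher and 6 (4.88%) lower in bone marrow. Segments entered by a mean of at least 10 junctions over the replicates of both groups together. Those that the line hardly used, such as Ighv1-4, passed through bone marrow alone. This filter favours calls higher in bone marrow, here and per all junctions. The 6 lower segments were the 6 nearest to D among those named: Ighv5-4-like 114830805 with a log2 change of -2.83, Ighv5-2, Ighv2-2-like 114846142 with -1.99, Ighv2-3 with -1.35, Ighv5-4 with -1.12 and Ighv5-6 with -0.45. Ighv5-6 overlapped between the groups, at 1.72% to 3.06% of VH junctions in bone marrow and 2.50% to 3.64% in the line (limma adjusted p = 0.0188). Its call was lost with parental a or b libraries alone, without parental replicate 3 (log2 change -0.41, limma adjusted p = 0.119), with sequencing run as a random block, with limma-trend and for bone marrow run 3 against either parental run. Its limma adjusted p ran from 9.66e-08 to 0.362 over all alternatives. Ighv5-12, 130.7 kb from the first segment, held 1.66% ± 0.312 (SD, n = 6) and 1.81% ± 0.198 (SD, n = 4) of VH junctions and overlapped between the groups. Per all junctions, limma called 140 of 143 D and VH segments (97.9%), 136 (95.1%) higher and 4 (2.8%) lower in bone marrow, and all 4 lower ones were D segments: Ighd1-1, Ighd2-8-like 114690286, Ighd4-1 and Ighd2-3, with log2 changes of -2.04, -0.48, -0.46 and -0.40. The median log2 change over all segments tested was 5.38. Its size varied with the libraries and the fit. For bone marrow run 1 it was 4.44 against parental run 2 and 6.52 against parental run 4. It was 4.03 with limma-trend at a pseudocount of 2, and 3.29 with median-of-ratios scaling. With median-of-ratios scaling, 115 were higher and 14 lower, and per VH junction 68 were higher and 7 lower.

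The widest gaps were at segments that the line hardly used. Ighv1-4, 1285 kb from the first VH segment, held 0.209%, 0.295% and 0.484% of all junctions in the lowest, median and highest bone marrow replicate, 1200 junctions in all. The line had 0 there among 488632 junctions. Against a floor of 3 junctions over the parental group, its share in bone marrow was at least 551-fold higher. Ighv1-26-like 116311065 also had 0 parental junctions and was at least 411-fold higher. Ighv15-2, Ighv3-1-like 115608443, Ighv3-6 and Ighv8-5-like 116090741 had 3 parental junctions each, against 1933, 1975, 1807 and 1611 in bone marrow. For Ighv15-2 the ratio of pooled shares was 888, with a 95% counting interval from 304 to 4308. Of the VH segments shown with their sequences, Ighv2-9 ranked 5 in bone marrow at 1.72%, 2.50% and 3.06% of VH junctions in the lowest, median and highest replicate, and held 0.828%, 0%, 0.168% and 0.0436% in the line. Ighv1-5 held 1.61%, 1.71% and 1.96% in bone marrow and 0.166%, 0.159%, 0.00800% and 0.0784% in the line. The most distal segment with enough junctions to test, Ighv1-67-like 117638092, had 191 junctions in bone marrow and 0 in the line.

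**Figure D3:**
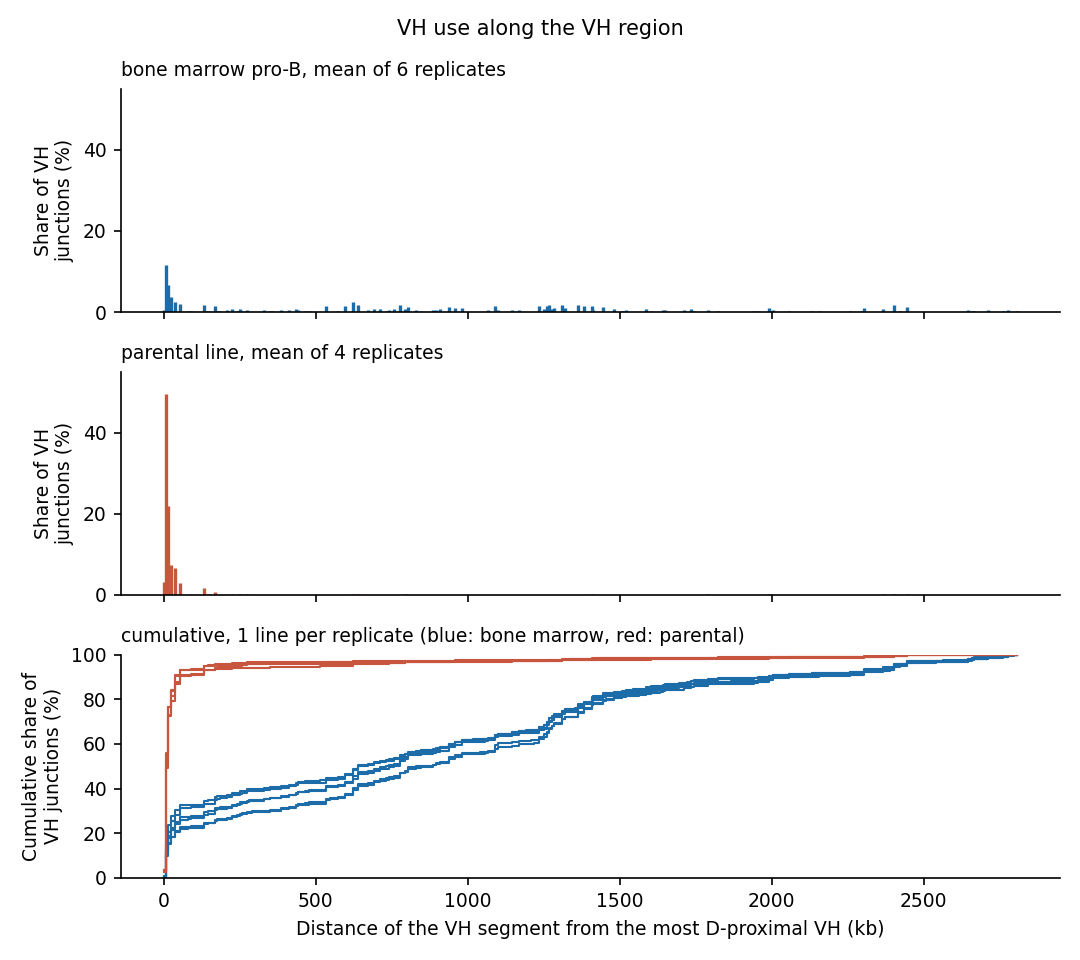
Top and middle: mean share of VH junctions (%, linear axis, same scale) of each VH segment against its distance in kb from the most D-proximal VH, for bone marrow (n = 6) and the parental line (n = 4). Bottom: cumulative share from the D-proximal end, 1 line per replicate, where the parental lines are near their top within the first few segments and the bone marrow lines climb across the whole region.

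The families followed their places along the region. Ighv1, the largest and mostly distal family, held 23.7%, 25.6% and 28.2% of VH junctions in the lowest, median and highest bone marrow replicate, and 1.76%, 2.06%, 1.63% and 1.98% in the line. Ighv5, a mainly D-proximal family, held 28.1% ± 3.01 (SD, n = 6) against 66.8% ± 3.65 (SD, n = 4). Ighv2, which is interspersed with it, held 16.5% ± 1.06 against 29.6% ± 4.11 (SD, n = 6 and 4). Ighv3, Ighv6, Ighv7, Ighv8, Ighv9 and Ighv14 were all higher in bone marrow, Ighv3 at 5.10% against 0.169% and Ighv8 at 4.02% against 0.635%. At an equal depth of 604 VH junctions, 104, 108 and 112 VH segments were found in the lowest, median and highest bone marrow replicate, and 40, 37.2, 28.1 and 28.8 in the line. The 10 most used VH segments held 36.7% ± 4.14 (SD, n = 6) of VH junctions in bone marrow and 95.2% ± 1.04 (SD, n = 4) in the line.

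D joins in bone marrow more often held extra bases between the D segment and Ighj4, and fewer of them lay on bases that both ends share. Extra bases were found in 87.8%, 88.5% and 89.1% of D junctions in the lowest, median and highest bone marrow replicate, and in 75.6%, 76.5%, 54.5% and 51.5% in the line. Shared bases were found in 5.85%, 6.20% and 6.37%, against 14.9%, 14.1%, 30.8% and 32.7%. Parental replicates 1 and 2, of 1 sequencing run, stood nearer to bone marrow than replicates 3 and 4, of another run. In libraries of replicates 3 and 4, 65.3% to 67.8% of reads held an uncalled base. The share was 12.9% to 13.2% in those of replicates 1 and 2, and 5.11% to 16.1% in bone marrow. The part of uncalled bases in the values read from junction bases was not tested. With identical junctions counted once, extra bases were in 89.3% ± 0.387 (SD, n = 6) of bone marrow D junctions and in 84.7%, 84.3%, 82.6% and 81.3% in the line, a smaller gap but still without overlap. Such counting also merges separate direct and shared-base joins, which have few possible forms, and its part in the smaller gap was not tested. The mean number of extra bases was 3.72 ± 0.0647 (SD, n = 6) against 1.94 ± 0.524 (SD, n = 4). Ighj4 had lost 4.76 ± 0.0365 (SD, n = 6) bases on average in bone marrow D joins and 3.84 ± 0.275 (SD, n = 4) in the line.

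Within Ighd1-1 alone, where D choice plays no part, the differences had the same direction. Extra bases were in 84.5%, 85.6% and 86.0% of its junctions in the lowest, median and highest bone marrow replicate, and in 74.1%, 75.1%, 53.4% and 50.2% in the line. This gap shrank when identical junctions were counted once, to means of 87.4% and 85.4%, still without overlap (exact permutation p = 0.00476, Benjamini-Hochberg 0.00677). Direct and shared-base joins have few possible forms, so counting once merges separate joins of these kinds. How much of the shrinkage comes from that was not tested. With identical junctions counted once, shared bases were in 5.20% ± 0.673 (SD, n = 6) of Ighd1-1 junctions in bone marrow and 6.53% ± 0.528 (SD, n = 4) in the line, with overlap (exact permutation p = 0.0238, Benjamini-Hochberg 0.0297). With every read counted they were in 7.37% ± 0.506 (SD, n = 6) in bone marrow and 15.5%, 14.8%, 31% and 33.2% in the line. The mean number of bases lost from Ighj4 in these joins turned from 0.71 higher in bone marrow to 0.558 lower with identical junctions counted once. The 2 forms most frequent in the line each use 3 bases that both segments hold, shown in capitals, and the next most frequent joins the segments directly, with none.
Ighd1-1 to Ighj4, shared TAC: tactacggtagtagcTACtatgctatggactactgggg
Ighd1-1 to Ighj4, shared CTA: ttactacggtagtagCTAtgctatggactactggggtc
Ighd1-1 to Ighj4, direct: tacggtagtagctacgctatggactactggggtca
The form with shared TAC made up 4.18%, 4.15%, 8.21% and 9.01% of Ighd1-1 junctions in parental replicates 1 to 4, and 0.848% to 1.42% in bone marrow. The form with shared CTA made up 3.15%, 3.08%, 6.67% and 7.56% in the line and 0.945% to 1.62% in bone marrow. A form with 1 extra base was the third in bone marrow, with the extra base in capitals, and was lower in the line.
Ighd1-1 to Ighj4, 1 extra base: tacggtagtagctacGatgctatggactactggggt
It made up 0.736% to 2.04% of Ighd1-1 junctions in bone marrow, and 0.573%, 0.634%, 0.346% and 0.363% in the line. Another form with 1 extra base, ranked 5 in the line, went the other way, with means of 0.606% in bone marrow and 1.30% in the line. Over all D junctions, exactly 1 extra base was found in 11.8% to 13.2% in bone marrow. In parental replicates 1 to 4 it was found in 17.6%, 17.8%, 15.8% and 15.4%. The forms were picked by their frequency in these reads, so their values are a description with no test.

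A VH join can hold a D segment as well as extra bases between VH and Ighj4. The mean number of bases between VH and Ighj4 was 17.1 ± 0.0950 (SD, n = 6) in bone marrow. It was 14.3, 15.2, 13.0 and 12.7 in parental replicates 1 to 4. The deposited files hold no junction with more than 30 such bases, and joins with 29 or 30 made up 2.22% ± 0.116 (SD, n = 6) of VH junctions in bone marrow and 0.485% ± 0.317 (SD, n = 4) in the line. VH joins with longer stretches are therefore not counted, and the length at which the files end is nearer to the bulk of the bone marrow joins.

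**Figure D4:**
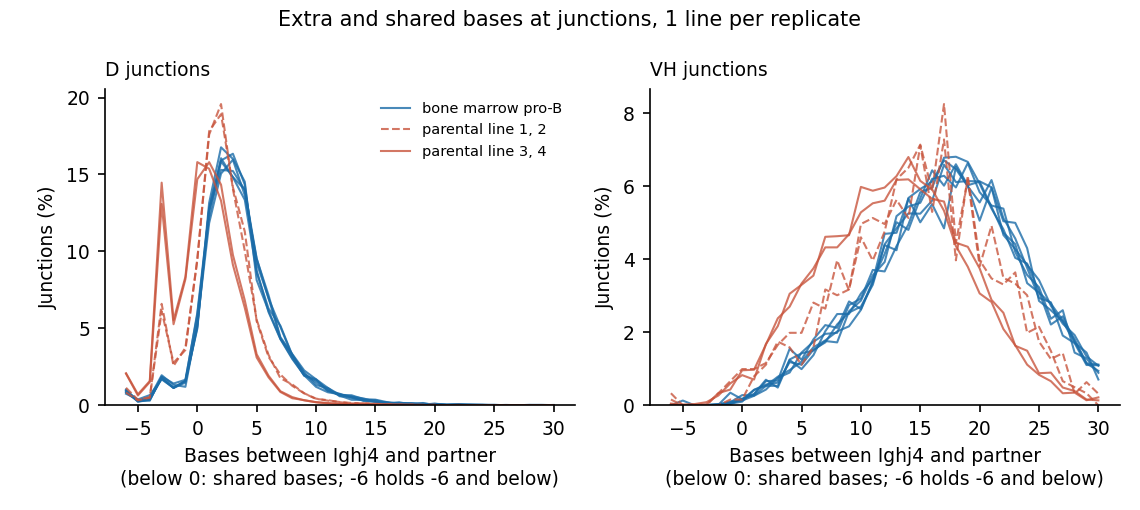
Distribution of bases between Ighj4 and the partner (x axis, bases, with shared bases below 0) as a share of junctions (y axis, %), 1 line per replicate, for D junctions at the left and VH junctions at the right. In D junctions, parental replicates 3 and 4 (solid red) have a second rise at 3 shared bases, to 13.1% and 14.5%, where replicates 1 and 2 (dashed red) reach 6.59% and 6.12%, and bone marrow (blue) lies to the right in both panels.

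The D segment inside a VH join could be read from the bases between. A D sequence was matched over at least 8 bases in 67.0%, 69.2% and 69.9% of VH junctions in the lowest, median and highest bone marrow replicate, and in 64.2%, 67.1%, 63.5% and 63.9% in the line. Parental replicate 2 overlapped bone marrow (exact permutation p = 0.00952, Benjamini-Hochberg 0.0124). D sequences with their letters reversed, a background, matched in 2.97% ± 0.225 (SD, n = 6) and 1.79% ± 0.834 (SD, n = 4). Without duplicate-marked reads the difference was 3.01 points and did not pass (Benjamini-Hochberg 0.0556, exact permutation test).

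Inside VH joins the Ighd1 share overlapped between the groups, unlike in their D joins. Among VH junctions matched to 1 D family, Ighd1 made up 28.0%, 28.8% and 31.4% in the lowest, median and highest bone marrow replicate and 29.5%, 32%, 32.7% and 30.5% in the line. These values overlap (exact permutation p = 0.0571, Benjamini-Hochberg 0.0642). Among D joins the same family held 29.5% ± 1.33 (SD, n = 6) and 66.4% ± 0.151 (SD, n = 4). The share inside VH joins minus that among D joins was -0.276 ± 1.73 points (SD, n = 6) in bone marrow and -36.9, -34.2, -33.9 and -35.8 points in the line. The groups differed in this by 34.9 points (exact permutation p = 0.00476, also after Benjamini-Hochberg adjustment over the 5 such contrasts). Ighd2 made up 63.4% to 68.0% of the matched VH junctions in bone marrow and 64.8%, 61.8%, 60.3% and 62.5% in the line, where replicate 1 overlapped (exact permutation p = 0.0238, Benjamini-Hochberg 0.0285). Its share inside VH joins minus that among D joins was 4.58 ± 1.47 points (SD, n = 6) in bone marrow and 38.3, 36.4, 33.0 and 34.8 points in the line. Ighd4, the family of Ighd4-1, made up 1.68% to 2.74% inside VH joins in bone marrow and 3.81%, 4.75%, 4.21% and 3.52% in the line, without overlap. It was lower inside VH joins than among D joins in every replicate of both groups, by 3.44 points on average in bone marrow and 2.03 in the line. Families differ in length, Ighd1-1 with 23 bases, most Ighd2 segments with 17 and Ighd4-1 with 11, so the minimum match and the limit of 30 bases can weigh on them differently, and the limit lies nearer to the bone marrow joins. Their part in these values was not tested.

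More VH joins in bone marrow were in frame. Reading frame was called where the cysteine codon of VH and the tryptophan codon of Ighj4 were both found, which was so for 92.7% to 94.8% of VH junctions in bone marrow and 87.0% to 92.0% in the line. Joins in frame without a stop made up 38.0%, 42.7% and 51.4% in the lowest, median and highest bone marrow replicate. They made up 26.9%, 27.5%, 26.6% and 26.1% in the line, and the groups did not overlap. The means were 43.4% ± 4.55 (SD, n = 6) and 26.8% ± 0.591 (SD, n = 4). Joins in frame with a stop were alike in range, at 8.06% ± 1.11 (SD, n = 6) and 7.57% ± 1.27 (SD, n = 4) (exact permutation p = 0.548, Benjamini-Hochberg 0.56).

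Ighv5-2 stood against this. Its joins were in frame without a stop in 15.8%, 18.5% and 21.1% in the lowest, median and highest bone marrow replicate, and in 25.5%, 23.6%, 26.2% and 27.3% in the line, so that here every bone marrow value was below every parental one. All other VH segments together gave 40.8%, 46.0% and 55.1% in bone marrow and 28.5%, 31.2%, 26.9% and 25.1% in the line. Within bone marrow, Ighv5-2 was lower than the other VH segments in 6 of 6 replicates, by 28.3 ± 6.43 points (SD, n = 6; exact sign-flip test, p = 0.0313, the smallest possible, Benjamini-Hochberg 0.0391). In the line the difference was -3.01, -7.65, -0.722 and 2.25 points, and the groups differed by -26.0 points (exact permutation p = 0.00476). VH81X, as Ighv5-2 is also known, has long been described as a segment whose heavy chains often fail to pair with surrogate light chain.

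Other D-proximal segments had lower in-frame shares than most VH segments in bone marrow, but means near those of the line where both were readable. Of 59 VH segments with at least 30 readable junctions in each bone marrow replicate, 12 had a mean under 33.3%, and these held all 6 of those within 100 kb of the first VH. Another 2 within 100 kb had fewer junctions and larger spread, Ighv2-4 at 47.1% ± 17.6 and Ighv5-9-like 114919648 at 54.4% ± 30.4 (SD, n = 6). Ighv2-2-like 114846142 was in frame in 23.9% ± 4.59, Ighv5-4 in 27.9% ± 6.04, Ighv5-6 in 28.7% ± 6.56 and Ighv2-3 in 30.6% ± 5.55 (SD, n = 6). The other 6 of the 12 lay across the region, the lowest being Ighv11-2-like 115560449 at 12% ± 10.7 and Ighv2-2-like 115039214 at 17.1% ± 10.0 (SD, n = 6). The highest were Ighv9-3-like 115739254 at 65.0% ± 6.83, Ighv5-9-1-like 115215891 at 64.9% ± 7.6 and Ighv1-84, near the distal end, at 64.1% ± 6.52 (SD, n = 6). The median over the 59 segments was 54.5%, and 38 were over 50%. Only 4 segments could be read in every replicate of both groups, and apart from Ighv5-2 their parental means were 26.9% for Ighv2-2-like 114846142, 29.5% for Ighv5-4 and 31.6% for Ighv2-3. These parental means are under 33.3% too, so a mean under that limit is not low against the line. Segments were not tested one by one. By place, the D-proximal part of the region gave 36.3% ± 4.56 in bone marrow and 26.7% ± 0.539 in the line (SD, n = 6 and 4; exact permutation p = 0.00952, Benjamini-Hochberg 0.0124). The other 3 parts gave 49.9% ± 4.07 and 26.3% ± 9.91 (SD, n = 6 and 4), the latter resting on 21, 24, 301 and 342 junctions.

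**Figure D5:**
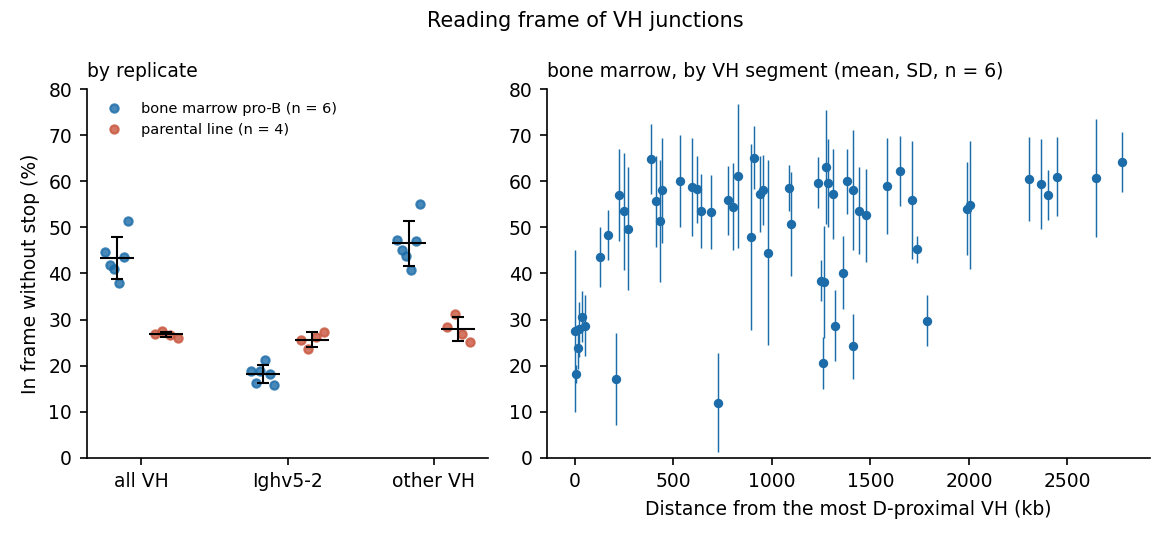
Left: share of readable VH junctions in frame without a stop (%, linear axis) for all VH, Ighv5-2 and the other VH segments, 1 point per replicate (blue: 6 bone marrow, red: 4 parental), black bars for mean and SD. Right: the same share in bone marrow for 59 VH segments against distance in kb from the first VH (mean and SD, n = 6), where the 6 plotted segments nearest to D are all under 33.3%.

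Few junctions lay elsewhere. Other chromosomes held 0.0578%, 0.0869% and 0.176% of junctions in the lowest, median and highest bone marrow replicate, and 0.284%, 0.284%, 0.279% and 0.334% in the line. Without duplicate-marked reads, bone marrow replicates 1 to 3 held 0.319%, 0.427% and 0.396% and the groups overlapped. Junctions at other receptor loci join Ighj4 to another chromosome, and rearrangement within those loci is not seen from this bait. Igk, the kappa light chain locus on chromosome 6, had 0 junctions in 5 bone marrow replicates and 3 in replicate 4. It had 29, 18, 382 and 321 in the line, or 165, 122, 165 and 143 per 100000 junctions, and 19, 8, 179 and 124 of these lay near Igkj1 to Igkj5 (chr6:70672556-70673921 in mm9). Tcra and Tcrd together had 30 junctions in bone marrow and 8 in the line, and the rates overlapped (exact permutation p = 0.124, Benjamini-Hochberg 0.132). Igl and Tcrg had 0 junctions in both groups, which allows up to 0.846 per 100000 in bone marrow and 0.614 in the line, counting error only. The 4 kb upstream of Ighd1-1, an interval chosen after its values were seen, held 0.459% ± 0.116 (SD, n = 6) of junctions in bone marrow and 1.48% ± 0.110 (SD, n = 4) in the line. D junctions in the orientation of joining by inversion were rare, at 0.153% ± 0.0617 (SD, n = 6) and 0.0911% ± 0.0170 (SD, n = 4) (exact permutation p = 0.0429, Benjamini-Hochberg 0.0488). That direction turned to -0.165 points with identical junctions counted once, and leaving out bone marrow replicate 5 gave 0.0380 points. The call was lost without bone marrow replicate 1, 3 or 6 or without any 1 parental replicate, at Benjamini-Hochberg values from 0.0542 to 0.153 (exact permutation tests).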

How the data were processed

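Per the labels, genomic DNA was made into linear-amplification libraries and reads were aligned to a hybrid of AJ851868 and mm9. Bowtie2 is named in the submitters' processing notes, without a version, and filters are not given in the sources used here. As deposited, a file has a line for each junction read (unit: other), with partner position, orientation and the read's bases, and no counts. From these, 178 segments (151 VH and 27 D) were set from peaks of junctions and named by BLAST 2.17.0 against mm9 annotation, or by a constant offset of 390222 bp from position 116097538 on. In parental libraries positions were moved by 3 bp to those of bone marrow. Segments are called by hybrid position, and sequences come from mm9 or the reads. Shares were tested by exact permutation with Benjamini-Hochberg adjustment (scipy 1.17.1). Segment tallies with a mean of at least 10 junctions were tested with limma 3.58.1 (voom, pseudocount 0.5) in R 4.3.3, at an adjusted p under 0.05. The limma test was also run on simulated tallies that were independent and had no effect of run. That simulation cannot show how the test behaves where replicates share a run, as they do here.

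Depth was 30090 to 89909 junctions per bone marrow replicate and 14866 to 231023 per parental replicate. Floors of 3 counts and 95% exact intervals cover counting error only, and PCR reads are not independent molecules. Segments, lists and tests were chosen with earlier results of these data known. Named segments are all D segments with a mean of at least 10 junctions, the 10 most used VH segments per group, the 6 largest changes in each direction per fit and the VH segments at either end. Replicate numbers did not pair the groups: deviations of same-numbered replicates correlated at 0.375, 0.0841, 0.00522 and 0.374. Alternatives were duplicates dropped, identical junctions counted once, a or b libraries only, other windows, minimum tallies, scaling and pseudocount, each replicate left out, single runs, sequencing run as a random block and a replicate block. The 96 other files were not used here.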

Additional observations from a re-analysis of the deposited data

Results flagged for a closer look

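Among 182 groups checked for a replicate far from the rest, 19 stood apart, and chance gives about 1 in 20. Explanations were not tested.

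In bone marrow, replicate 4 had the lowest Ighd3 share of VH joins matched to 1 D family, at 1.87%, and the highest Igk rate, at 7.12 per 100000. In Ighv5-2 joins it had the lowest share with extra bases, at 99.0%, and the highest with shared bases, at 0.894%. Replicate 5 had the lowest mean of extra bases in Ighv5-2 joins, at 15.5, the highest share of VH joins with shared bases, at 0.361%, and the highest share of D joins in inverted orientation, at 0.272%. Replicate 6 had the lowest share of VH joins with a matched D, at 67.0%, and the highest share in the interval between D and VH, at 0.0183%. Replicate 1 had the lowest Ighd1 family share of D joins, at 26.9%, and the highest median of extra bases in VH joins, at 18. Replicate 2 had the lowest share of Ighd5-7-like 114708573 among D joins, at 0.0305%.

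In the line, replicate 4 had the highest median distance of VH joins, at 10.5 kb, which is a mean of its a and b library medians. It had a median distance of 1 bp from the D end where the others had 2, and the highest share on other chromosomes, at 0.334%. Replicate 2 had the highest share of VH joins with 29 or 30 extra bases, at 0.959%, and of joins in frame with a stop, at 9.47%. It had the lowest shares of direct VH joins, at 0.162%, and of inverted D joins, at 0.0657%. It holds 630 VH junctions.

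For 5 contrasts made within each replicate the groups differed by the exact permutation test (p = 0.00476 each). Bone marrow minus the line was -26.0 points for the in-frame share of Ighv5-2 against the other VH segments, and -14.0 points for that of the D-proximal part against the rest of the region. For the D-proximal contrast, parental replicates 1 to 4 had 13.9, -10.4, 0.0840 and -2.05 points, and replicates 1 and 2 rest on few junctions outside that part. Bone marrow ran from -15.7 to -11.4 points. For D families the contrast was the share inside VH joins minus that among D joins. Bone marrow minus the line in this was 34.9 points for Ighd1, -31.0 for Ighd2 and -1.41 for Ighd4.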

How the results depend on the processing

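Run, strain, culture and drug cannot be told apart from the groups, 2 or 3 replicates share a run, and the smallest parental replicates hold 604 and 630 VH junctions, which limits what can be seen at distal VH segments. The VH, D, Ighd1-1, D-proximal, Ighv1, extra base and in-frame differences of the report kept direction and significance under every alternative with a test. Log2 changes in this part are from limma, shares are in percentage points, and each is bone marrow minus the line. Causes were not tested.

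Leaving out 1 replicate at a time moved the differences to 24.8 to 27.7 points for VH share, -28.1 to -25.3 for D share, -43.1 to -42.3 for Ighd1-1, -49.7 to -47.9 for the D-proximal part, 23.6 to 24.5 for Ighv1, 19.6 to 27.9 for extra bases, 3.91 to 5.11 for matched D, 15.0 to 17.7 for frame, -0.208 to -0.180 for other chromosomes, 72.3 to 76.3 for VH segments at equal depth and 0.0380 to 0.0707 for inverted D joins, the last losing its call in 7 of 10 cases. It gave 133 to 141 calls per all junctions, 98 to 116 per VH junction and 16 to 17 per D junction. It turned the sign of values that had not passed: Ighd2-8-like 114690286 (-0.139 to 0.145 points, log2 -0.024 to 0.035), Ighd4-1 (-0.657 to 0.0431 points, log2 -0.047 to 0.069), Ighd3 inside VH joins (-0.0238 to 0.672 points), Ighv5-12 (log2 -0.16 to 0.055) and the interval between D and VH (-0.00345 to 0.00178 points).

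Dropping duplicate-marked reads left the matched D difference at 3.01 and that of other chromosomes at -0.0387, neither past the threshold. It turned Ighd2-8-like 114690286 (0.263 points, log2 -0.0058), Ighd4-1 (0.214 points, log2 -0.16), Ighv5-4-like 114830805 per all junctions (log2 0.11) and the interval (0.00525 points). Counting identical junctions once turned inverted D joins to -0.165 points. It also turned Ighd2-3 (-1.12 points, log2 -0.13), Ighd5-7-like 114708573 (-0.0146 points), the median D end distance (-0.458 bp), the mean distance and Ighj4 loss of Ighd1-1 joins (-0.802 bp and -0.558 bases), Ighd2-8-like 114690286 (log2 -0.42) and Ighd4-1 (-0.31). Per all junctions it turned Ighv2-2-like 114846142 (-0.65), Ighv2-3 (-0.48), Ighv5-2 (-0.89) and Ighv5-4 (-0.13).

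Median-of-ratios scaling gave 75 calls per VH junction. Per D junction it turned Ighd2-3 (log2 -1.50), Ighd2-8-like 114690286 (-1.86), Ighd2-8-like 114695747 (-0.45), Ighd2-8-like 114714725 (-0.44), Ighd4-1 (-1.98), Ighd5-4-like 114713460 (-0.39) and Ighd5-7-like 114708573 (-0.64). Per VH junction it turned Ighv5-9-like 114998634 (-0.22), and per all junctions Ighv2-2-like 114846142 (-1.39), Ighv2-3 (-0.82), Ighv5-2 (-1.56) and Ighv5-4 (-0.55). A minimum mean of 50 junctions tested fewer segments and gave 80, 67 and 10 calls per all, VH and D junctions. A pseudocount of 2 without voom gave 73 calls per VH junction and turned Ighd2-8-like 114690286 (-0.0053), Ighd4-1 (-0.090) and Ighv5-4-like 114830805 (0.031).

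Bone marrow run 1 against parental run 2 gave 70 calls per VH junction and turned Ighd2-3 per all junctions (log2 0.038), Ighd2-8-like 114690286 (-0.085), Ighd4-1 (-0.27) and Ighv5-4-like 114830805 (0.49). Run 3 against run 2 gave 40 calls and 67.2 more VH segments, and turned Ighd2-3 (0.072), Ighd2-8-like 114690286 (-0.0028), Ighd4-1 (-0.25) and Ighv5-4-like 114830805 (0.25). Run 1 against run 4 gave 81.0 more VH segments and turned Ighd2-8-like 114690286 (-0.011), and run 3 against run 4 turned Ighd2-3 (-0.029) and Ighv5-12 (0.040). Parental a libraries alone turned Ighd2-8-like 114690286 (0.160 points) and Ighv5-4-like 114830805 (log2 0.023). Parental b libraries alone left inverted D joins at 0.0518 points, past no threshold, and turned Ighd2-8-like 114690286 (log2 -0.0011), Ighd4-1 (-0.0022) and the interval (0.000211 points). With sequencing run as a random block, chosen after seeing the data, 140, 101 and 16 segments were called per all, VH and D junctions.

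The replicate block over replicates 1 to 4 gave 136, 108 and 17 calls and a VH share difference of 26.7 points. It turned Ighd4-1 per D junction (log2 -0.16), where the same replicates without a replicate block, chosen after seeing the data, gave 136, 112 and 15 calls with Ighd4-1 at -0.096 and Ighd2-8-like 114690286 at -0.0020. It moved no count of calls by over 1.5 times. Same-numbered replicates are different cells, and not all 4 correlated over 0.1.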

Other observations

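Several VH segments often used in bone marrow carry a pseudogene annotation in RefSeq. Ighv7-1 held 1.65%, 1.84% and 2.08% of VH junctions in the lowest, median and highest bone marrow replicate and 0.166%, 0.317%, 0.144% and 0.0871% in the line, and 53.6% ± 8.11 (SD, n = 6) of its bone marrow joins were in frame without a stop. Ighv1-2 held 1.37%, 1.72% and 1.97% against 0.331%, 0%, 0.0640% and 0.0523%, and 38.1% ± 12.2 (SD, n = 6) of its bone marrow joins were in frame without a stop. Positions follow mm9 and the pseudogene annotation follows RefSeq, and both may differ in the strain of these cells.

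Distinct Ighd1-1 junction forms, told apart by the bases around the join, numbered 1214 to 3017 per bone marrow replicate, among 5563 to 13584 reads. Parental replicates 1 to 4 held 4069, 3648, 18437 and 15604 forms among 10826, 9032, 139368 and 135596 reads.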
